A study of Drosophila melanogaster with 5 samples.

Results

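Tubulins and cytoplasmic actins are the building blocks of microtubules and actin filaments, and several of their genes are widely used as reference genes. Here 10 such genes of Drosophila melanogaster were followed in the larval CNS: the alpha-tubulins alphaTub84B, alphaTub84D and alphaTub85E, the beta-tubulins betaTub56D, betaTub60D and betaTub97EF, the gamma-tubulins gammaTub23C and gammaTub37C, and the cytoplasmic actins Act5C and Act42A. They were chosen by symbol, and all 10 were found among the 16510 genes of the table of FPKM (fragments per kilobase of exon, scaled to the mapped fragments of the library) and among the 16680 genes of the table of mean normalized counts. The RNA came from 3 control samples (UAS-dsitpr/+; UAS-dicer/+) and 2 samples in which the IP3R, the calcium release channel of the endoplasmic reticulum, was knocked down by RNAi (ElavC155GAL4/+; UAS-dsitpr/+; UAS-dicer/+). Each sample pooled about 15 CNSs of larvae at 84 h after egg laying. Both groups thus carried the RNAi and Dicer transgenes, and only the knockdown larvae carried the driver. The sample labels and a figure legend of the study name the driver as ElavC155GAL4, which is pan-neuronal, whereas its Methods name VGN6341-GAL4, which marks a set of glutamatergic neurons. In bulk RNA, fewer cells of a type and less RNA per cell cannot be told apart.

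Alpha- and beta-tubulin pair into the dimers that polymerize into microtubules, which fill axons and dendrites as tracks for transport and form the mitotic spindle of dividing neuroblasts. Gamma-tubulin acts in ring complexes that nucleate microtubules at centrosomes and elsewhere. Cytoplasmic actin forms the cell cortex, growth cones and the cytokinetic ring. In the fly, each of these proteins is encoded by several genes, some used in nearly every cell and others confined to certain tissues, such as the germline or muscle.

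The alpha-tubulin genes all lie on chromosome arm 3R (dm6): alphaTub84B at 7086599-7088839 on the plus strand with 2 exons, alphaTub84D at 7530753-7532732 on the plus strand with 1 exon, and alphaTub85E at 9731221-9733250 on the minus strand with 3 exons. Of the beta-tubulin genes, betaTub56D lies at 19447319-19451600 on the minus strand of 2R, betaTub60D at 24305881-24313099 on the plus strand of 2R, and betaTub97EF at 27967008-27988384 on the minus strand of 3R. Both gamma-tubulin genes are on 2L, with gammaTub23C at 2972891-2974858 on the plus strand and gammaTub37C at 19183863-19185726 on the minus strand. The actin gene Act5C lies at 5900861-5905399 on the plus strand of the X chromosome and has 5 annotated transcripts, and Act42A lies at 6013910-6015689 on the minus strand of 2R. All 10 are protein coding, none overlaps another annotated gene, and their summed exons span 1560 to 2978 bases, close to the median of 2188 bases over the expressed genes.

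The files give 1 value per group, but the counts of the single libraries could be worked back from them. Each group mean is a sum of whole read counts, each divided by the size factor of its library, which scales for depth, and only 1 set of 5 whole numbers fitted the deposited values of each member. The mean of the controls needed 3 size factors and that of the knockdown 2. The libraries are called control a, b and c and knockdown a and b here, since they could not be matched to the replicate numbers in the labels. They fell into deeper libraries, control a (14536742 reads), control b (13953549) and knockdown a (13468766), and shallower ones, control c (10432941) and knockdown b (10358254). These totals sum the reads of the genes that were left after duplicates were removed. Deeper, shallower and depth refer here to these totals. The sources used here do not give the reads sequenced for each library. The study gives only ranges over its samples, by which a minority of the reads were unique and kept. As the check of the knockdown, Itp-r83A, which encodes the IP3R, had normalized counts (reads divided by the size factor) of 3572, 3181 and 2436 in control a, b and c and 2032 and 1995 in knockdown a and b. Its groups did not overlap, and its FPKM was 24.7 in the controls and 15.0 in the knockdown, 60.6% of the control. Both knockdown libraries were below all controls in 23.7% of the expressed genes. The gene has 10331 exon bases, and genes of the longest of 5 bins of exon length had a median log2 FPKM ratio of -0.26. With limma, a linear model fitted across all 9346 expressed genes, its log2 difference was -0.59 (SE 0.16, adjusted p = 0.101).

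Ranked by FPKM in the controls, the members spanned from 185 for betaTub56D to 10.4 for gammaTub37C. betaTub56D, the main beta-tubulin of most tissues, alphaTub84B, the main alpha-tubulin, and Act5C were nearly equal at 185, 180 and 179, and ranked 209, 232 and 237 among all genes. All levels here come from reads left after duplicates were removed, and the part of that step in the levels and ranks was not tested. The genes next to them in rank were mtacp1 (185) and CG14265 (185) around betaTub56D, RpLP0 (180) and tsr (180), which encodes the actin-severing cofilin, around alphaTub84B, and CG13551 (179) and mRpL34 (179) around Act5C. Act42A followed at 159 and alphaTub84D at 130. Then came gammaTub23C, the gamma-tubulin of somatic cells, at 96.5, betaTub97EF, a beta-tubulin known to stabilize microtubules at low temperature, at 91.6, and betaTub60D, a beta-tubulin of restricted tissues, at 79.8. The lowest were alphaTub85E, an alpha-tubulin of restricted tissues, at 39.8 and gammaTub37C, known from the ovary and early embryo, at 10.4. The knockdown FPKM put all 45 pairs of members in the same order. On the scale of normalized counts per kilobase of exon, 41 of the 45 pairs kept it, and betaTub56D (1612 in the controls) was below alphaTub84B (1914) and Act5C (1258) below Act42A (1665) in all 5 libraries. On that scale neighbours whose ranges over the 5 libraries overlapped were betaTub56D and alphaTub84B, Act42A and alphaTub84D, gammaTub23C and betaTub97EF, and betaTub97EF and betaTub60D. betaTub60D was above alphaTub85E, and alphaTub85E above gammaTub37C, with no overlap. The proteins of alphaTub84B and alphaTub84D are almost identical, and how reads that fit both genes were treated is not given in the sources used here, so the split between this pair is uncertain.

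The read counts of the most abundant members hardly varied between libraries of different depth. alphaTub84B had 3365, 3352 and 3323 reads in control a, b and c and 3405 and 3331 in knockdown a and b. betaTub56D had 3032, 3017 and 2977 reads in the controls and 3012 and 2974 in the knockdown. The 5 values lay within a CV (SD over the mean) of 0.967% and 0.855%. Their variance over mean was 0.314 and 0.219, below the 1 that random counting alone would give, which was seen in 1.12% of the expressed genes. Act5C had 3761, 3816 and 3657 reads in the controls and 3929 and 3830 in the knockdown. Act42A had 2765, 2733 and 2627 against 2834 and 2748, and alphaTub84D had 2755, 2743 and 2554 against 2878 and 2677. In these 5 genes the shallower libraries thus held nearly as many reads as the deeper ones, although control c had 0.732 times the total reads of control a and b, and knockdown b 0.769 times those of knockdown a.

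The other members varied more between libraries. gammaTub23C had 2089, 2070 and 1709 reads in the controls and 2184 and 1844 in the knockdown. betaTub60D had 2701, 2534 and 1812 reads against 2810 and 1990. betaTub97EF had 1953, 1827 and 1724 against 2158 and 1432, so that its ratio of control c to control a and b, 0.912, was near that of alphaTub84D, 0.929. gammaTub37C had 200, 187 and 147 reads against 291 and 193. alphaTub85E moved by more than depth, with 886, 814 and 369 reads in the controls and 805 and 414 in the knockdown. Its ratio of control c to control a and b was 0.434, the lowest of the 10, and that of knockdown b to knockdown a was 0.514, so it was low in the shallower library of each group.

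**Figure D1:**
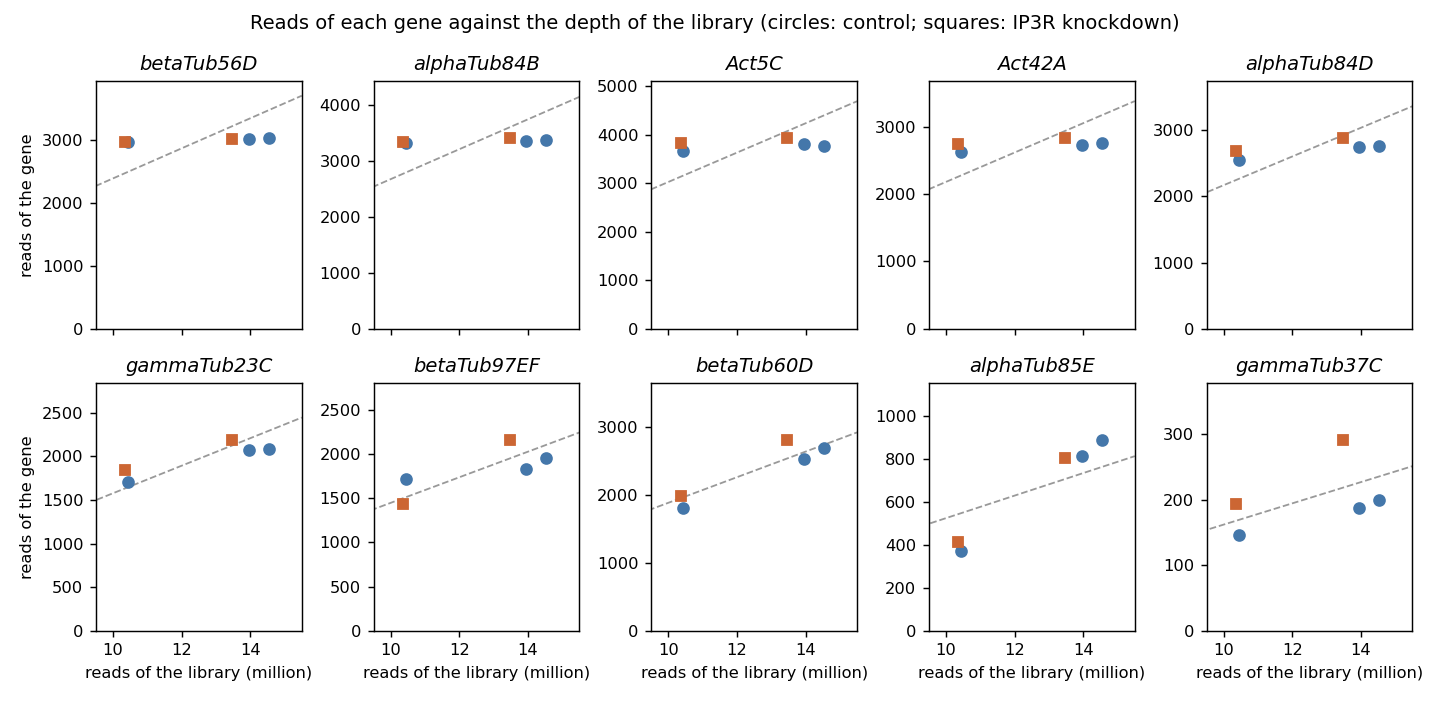
Reads of each member (y axis) against the total reads of the library (x axis, not from 0), with circles for the 3 control and squares for the 2 knockdown libraries. The dashed line marks reads in proportion to depth. The points of betaTub56D and alphaTub84B lie flat, at 2974 to 3032 and 3323 to 3405 reads, whereas those of alphaTub85E fall more steeply than the line.

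The flat counts went with the density of reads on the gene. alphaTub84B carried 1.91 reads per exon base in the mean of the controls and lay above 99.7% of the expressed genes in this respect, Act42A carried 1.67, betaTub56D 1.61, alphaTub84D 1.36 and Act5C 1.26. With the genes cut into 10 equal bins by this density, these 5 members were all in the highest bin. gammaTub23C (1.06), betaTub97EF (0.982) and betaTub60D (0.933) were in the next, alphaTub85E (0.442) was in bin 5 and gammaTub37C (0.109) in bin 1. Over 9236 expressed genes with an exon length, the median ratio of reads in control c to those in control a and b rose from 0.616 in the lowest bin to 0.911 in the highest. Within the knockdown, the median ratio of knockdown b to knockdown a rose from 0.629 to 0.887. Against that background, 4 of the 10 members reached a ratio of 0.95, compared with 5.57% of the genes. These were alphaTub84B (0.989), betaTub56D (0.984), Act5C (0.965) and Act42A (0.956). All 4 were among the 5 members of the densest bin, where 24.6% of the genes reached that ratio. The cut of 0.95 was not planned. The authors removed duplicate reads, which keeps reads that map to the same place only once, so the number of reads that a gene can hold is limited by its length. The part of this step in the flat counts was not tested.

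**Figure D2:**
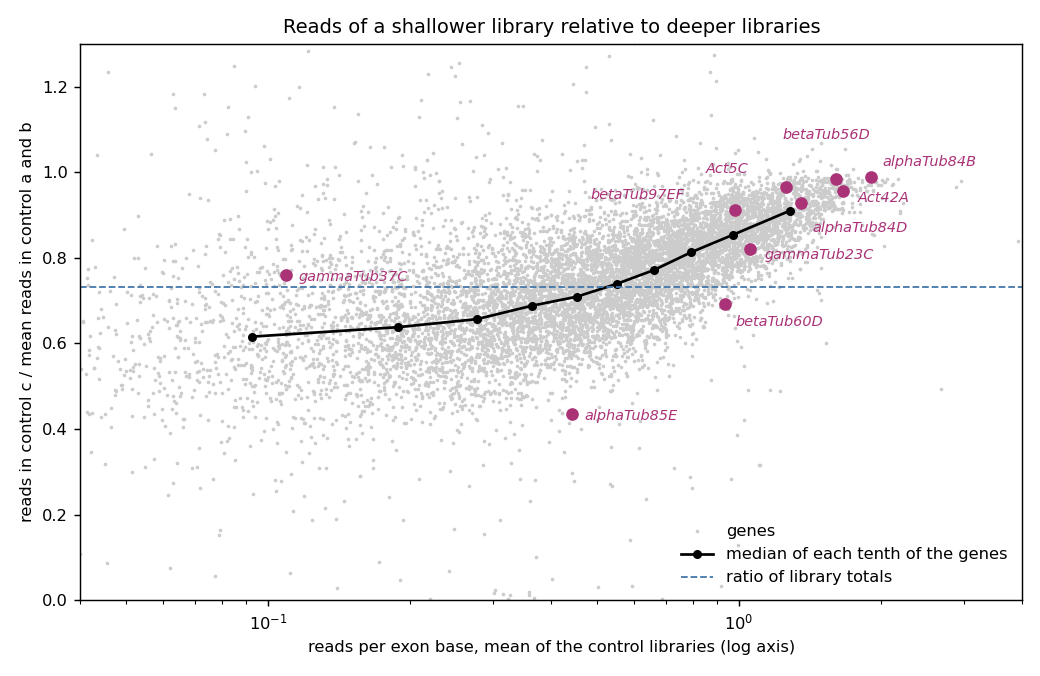
Reads in control c over the mean of control a and b (y axis) against reads per exon base in the controls (x axis, log scale) for the expressed genes (grey) and the 10 members (purple). The black line joins the medians of the 10 bins of genes and the dashed line is the ratio of the library totals, 0.732. alphaTub84B and betaTub56D lie near 1 at the dense end and alphaTub85E lies far below the median of its neighbours.

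Did these genes differ between control and knockdown? Of the 10 members, only gammaTub37C passed a 25% difference, the threshold of the study, with 1.38 times the control FPKM. Of the 13808 genes with FPKM above 0 in both groups, 20.3% were at least 25% higher and 19.3% at least 25% lower in the knockdown. The other 9 members lay between 0.895 and 1.05 times the control. The reads of the 5 most abundant members hardly varied between libraries. Whether such counts would follow a change in expression was not tested. The median log2 FPKM ratio of the members was 0.05, beside 0.04 over all genes. By mean normalized counts, again only gammaTub37C passed (1.37 times), where 7.07% of the expressed genes were at least 25% higher and 13.9% at least 25% lower. limma called none of the members at an adjusted p under 0.05. It called 0.203% of the expressed genes as higher and 2.56% as lower, and 23.3% of the genes but no member had an unadjusted p under 0.05. With a term for the shallower libraries, or with counts scaled to the library totals, the unadjusted p of 1 member, gammaTub37C, was under 0.05 (limma adjusted p = 0.128 and 0.152).

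Among the alpha-tubulins, alphaTub84B had normalized counts of 3002, 3034 and 4022 in control a, b and c and 2964 and 3908 in knockdown a and b. The groups overlapped, with the shallower library high in each. Its FPKM was 180 in the controls and 183 in the knockdown, a ratio of 1.02, and the limma log2 difference was 0.04 (SE 0.18, adjusted p = 0.917), with a 95% interval of the fold from 0.764 to 1.37. alphaTub84D had normalized counts of 2457, 2483 and 3091 against 2505 and 3140, in the same pattern, and FPKM of 130 and 136. Its fold interval by limma was 0.827 to 1.34. alphaTub85E had 790, 737 and 447 against 701 and 486, with the shallower libraries low in place of high. Its FPKM was 39.8 and 35.6, the lowest ratio of the 10 at 0.895. At matched depth it turned direction, at 0.918 times the control in the deeper and 1.09 times in the shallower libraries. Its fold interval was the widest among the alpha-tubulins, 0.577 to 1.45.

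The beta-tubulin betaTub56D had normalized counts of 2705, 2731 and 3603 in the controls and 2622 and 3489 in the knockdown. These scaled counts thus differed between the deeper and shallower libraries of each group and hardly between groups. The FPKM of betaTub56D was 185 and 187. Its reads before scaling were flat over the libraries, as given above. betaTub60D was the steadiest gene after scaling, with 2409, 2294 and 2193 against 2446 and 2334, and FPKM of 79.8 and 83.4. Its fold interval by limma, 0.907 to 1.19, was among the narrowest of the 10 and lay within the 25% threshold. The third gene, betaTub97EF, had 1742, 1654 and 2087 against 1878 and 1680. It turned direction with depth: knockdown a was 1.11 times the mean of control a and b, whereas knockdown b was 0.805 times control c. With 1 knockdown library on each side, these ratios have no test.

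gammaTub23C had normalized counts of 1863, 1874 and 2069 in the controls and 1901 and 2163 in the knockdown, and FPKM of 96.5 and 101. The groups overlapped and the limma interval of the fold was 0.896 to 1.23. gammaTub37C had normalized counts of 178, 169 and 178 in the controls and 253 and 226 in the knockdown, and was the only member whose groups did not overlap. Both knockdown libraries were above all control libraries in 19.4% of the expressed genes and below them in 23.7%. The difference of gammaTub37C was 175 ± 5.13 (SD, n = 3) against 240 ± 19.0 (SD, n = 2), with p = 0.1 in the exact permutation test (two-sided), the smallest that its 10 arrangements of 3 and 2 libraries can give. By limma the log2 difference was 0.45 (SE 0.19, adjusted p = 0.222), with a fold interval from 0.993 to 1.88. It was higher in the deeper libraries, at 1.46 times, and in the shallower ones, at 1.27 times. For the other 9 members the exact permutation p lay between 0.4 and 1.

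Some germline genes had the same direction as gammaTub37C. alphaTub67C, the maternal alpha-tubulin of the ovary and early embryo, had normalized counts of 25.0, 33.5 and 26.6 in the controls and 39.2 and 69.2 in the knockdown, and 1.73 times the control FPKM. Of 4 germline markers, 3 were more than 25% higher by FPKM, where 20.3% of all genes were at least 25% higher. vas, a germline RNA helicase, had 222, 228 and 180 against 344 and 260 (limma adjusted p = 0.208), and bam, a differentiation factor of germ cells, had 198, 193 and 202 against 274 and 438 (limma adjusted p = 0.114). The 3 include osk, which organizes the germ plasm and was at only 5.22 or less in every library. nos was at 39.2, 32.6 and 37.5 against 33.1 and 34.0 (0.571 times by FPKM). The summed normalized count of the 4 was 420 to 461 in the controls and 656 and 734 in the knockdown. betaTub85D, the beta-tubulin of the testis, overlapped between groups, with 229, 192 and 161 against 166 and 211. The part of germ cells in the value of gammaTub37C was not tested.

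At matched depth, the cytoplasmic actins had ratios near 1, but their reads hardly varied between libraries of different depth. Whether such flat counts would follow a change in expression was not tested. Act5C had normalized counts of 3355, 3454 and 4426 in the controls and 3420 and 4493 in the knockdown. Its group means stood at a ratio of 1.06, but knockdown a was 1.005 times control a and b and knockdown b 1.015 times control c. Act42A had 2466, 2474 and 3180 against 2467 and 3224, with a ratio of 1.05 for the group means, 0.999 in the deeper and 1.014 in the shallower libraries. The raw reads, with no scaling, stood at 1.04 for Act5C and 1.03 for Act42A. Of the controls 1 in 3 libraries was shallow, and of the knockdown 1 in 2. The part of this unequal depth in the group ratios was not tested. The limma intervals of the fold were 0.793 to 1.40 for Act5C and 0.802 to 1.37 for Act42A. The study describes biological triplicates for the control and duplicates for the knockdown, but does not say whether they came from separate crosses. The p-values here thus measure only the spread between these samples.

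**Figure D3:**
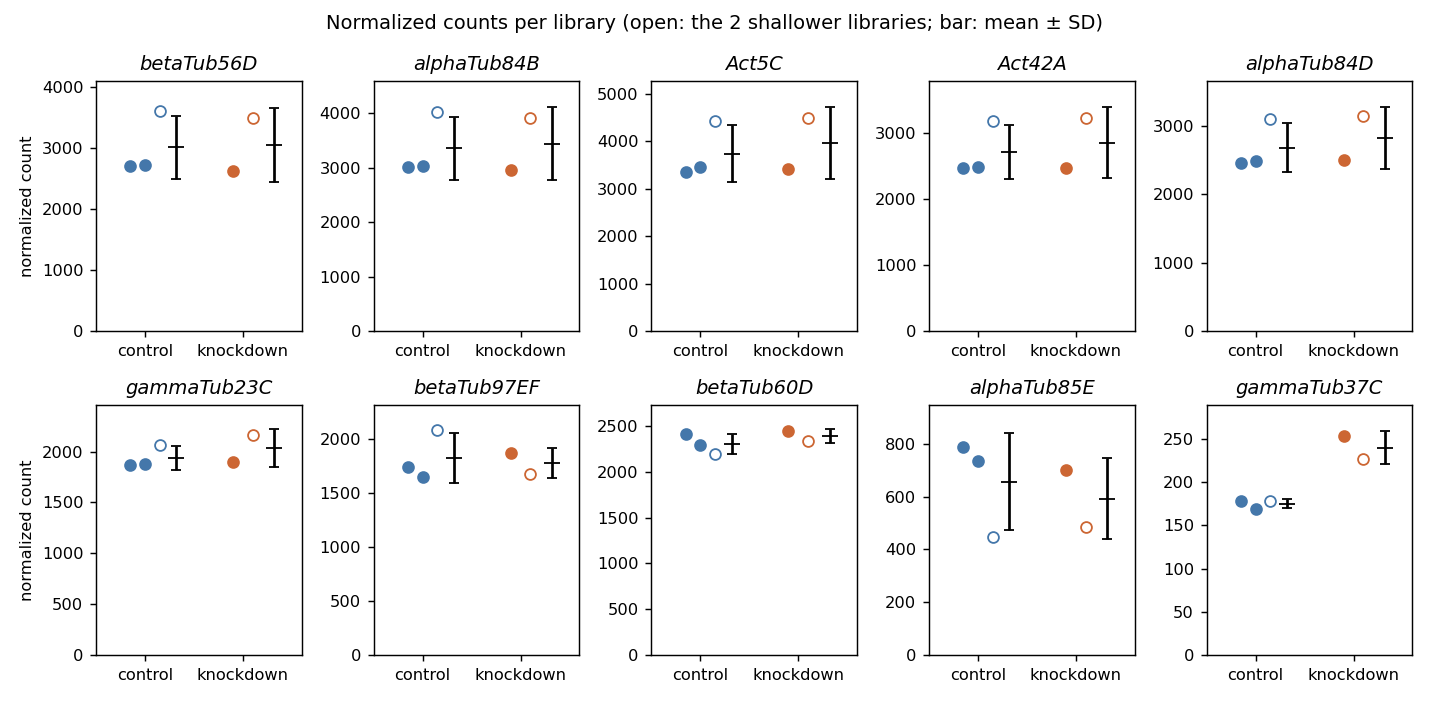
Normalized counts (y axis, from 0) of each member in the 3 control and 2 knockdown libraries, with open circles for the shallower libraries (control c, knockdown b) and bars for the mean ± SD of the group. For the 5 most abundant genes the open circle lies above the filled ones in both groups, and for gammaTub37C both knockdown libraries (253 and 226) lie above all controls (169 to 178).

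**Figure D4:**
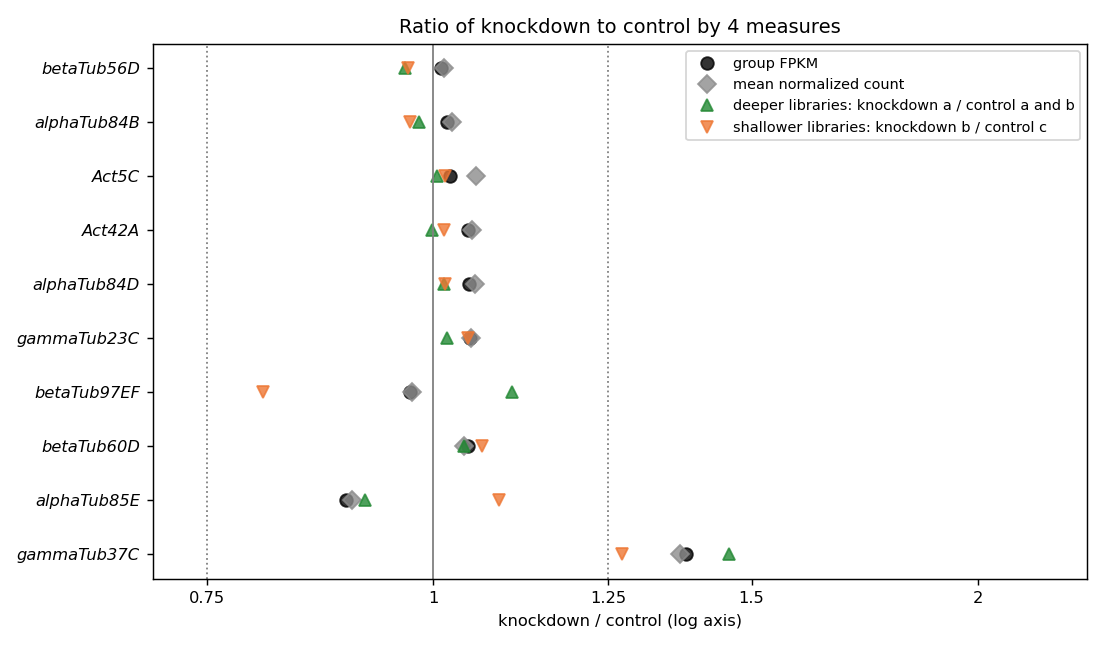
Knockdown over control (x axis, log scale) for each member by group FPKM, by mean normalized count, within the deeper libraries and within the shallower ones. Dotted lines mark differences of 25%. gammaTub37C lies right of the upper line by all measures, from 1.27 to 1.46, and the measures of betaTub97EF (0.805 to 1.11), alphaTub85E (0.895 to 1.09), alphaTub84B (0.972 to 1.02), betaTub56D (0.965 to 1.01) and Act42A (0.999 to 1.05) fall on both sides of 1.

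By FPKM, the leading genes of the alpha-tubulins, beta-tubulins and actins had close shares in both groups. The shares also come from reads left after duplicates were removed, and the part of that step in them was not tested. alphaTub84B gave 51.5% of the FPKM of the 3 alpha-tubulins in the controls and 51.7% in the knockdown, betaTub56D gave 51.9% and 52.0% of that of the 3 beta-tubulins, and Act5C 52.9% and 52.4% of that of the pair of actins. gammaTub37C gave 9.74% of the gamma-tubulin FPKM in the controls and 12.4% in the knockdown. In single libraries, by reads per kilobase of exon, the share of Act5C was the most even, at 42.6%, 43.3% and 43.2% in the controls and 43.1% and 43.2% in the knockdown. The exons of Act5C sum to 2978 bases over its 5 transcripts, and its share depends on the length by which its reads are divided. The share of alphaTub85E was 14.6%, 13.7% and 6.91% in control a, b and c and 13.2% and 7.54% in knockdown a and b. That of betaTub56D was 43.4%, 44.9% and 49.2% against 41.5% and 50.6%. Both thus differed more between the deeper and shallower libraries of each group than between the groups. Control c and knockdown b also differed from the deeper libraries in some genes of other tissues, such as Lsp2, given below. Which trait of these libraries went with the shares was not tested. gammaTub37C made up 9.81%, 9.31% and 8.90% of the gamma-tubulin reads per kilobase in the controls and 13.2% and 10.6% in the knockdown, with no overlap.

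**Figure D5:**
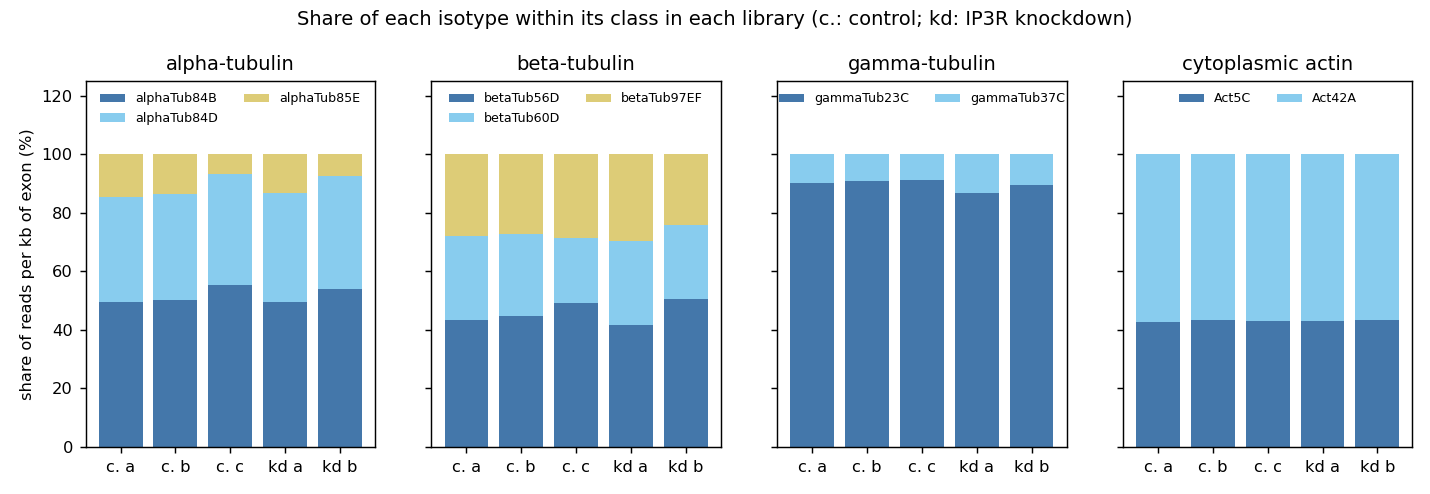
Share of each isotype (y axis, percent of the reads per kilobase of exon of its class) in control a, b and c and knockdown a and b (bars). The share of Act5C stays between 42.6% and 43.3%, and that of alphaTub85E is lower in the shallower libraries, control c (6.91%) and knockdown b (7.54%).

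Other genes of the same systems were read from 5 lists. Of 7 further tubulin and actin genes, 2 were more than 25% lower and 2 more than 25% higher by FPKM, beside 19.3% and 20.3% of all genes. limma, which could test 3 of the 7, called none. The lower ones were the muscle actins Act57B, with normalized counts of 2663, 2683 and 3471 against 2435 and 1940 (0.742 times by FPKM), and Act87E, with 1727, 1678 and 1813 against 1564 and 706 (0.651 times). For both genes the 2 knockdown libraries were below all controls, as in 23.7% of the expressed genes, and knockdown b was the lower. All 10 body wall muscle markers, which include these actins, were at least 25% lower by FPKM, as were 19.3% of all genes, and limma called none of the 10. Their summed normalized count was 26570 to 29698 in the controls, 18922 in knockdown a and 9781 in knockdown b, and the myosin heavy chain gene Mhc was at 8611, 8285 and 9510 against 4649 and 1530. The part of muscle in the values of the muscle actins was not tested. The higher ones were alphaTub67C, given above, and Act79B, a muscle actin, at 16.9, 13.6 and 14.5 against 29.6 and 41.1.

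None of the 16 chaperonin, prefoldin and tubulin cofactor genes, which fold actin and tubulin, was past 25% or called by limma. The most abundant, the chaperonin subunit gene Cct5, had FPKM of 156 and 158. Of 6 genes of the gamma-tubulin ring complex, only Grip75 was past 25%, at 1.37 times by FPKM, with overlapping normalized counts of 540, 823 and 597 against 1076 and 766 (limma adjusted p = 0.232). By FPKM, 19.3% of all genes were at least 25% lower and 20.3% at least 25% higher. Of 21 microtubule regulators, 20 had FPKM above 0 in both groups, 3 were more than 25% lower and none higher, and the median log2 ratio was -0.02. limma, which called 2.56% of the expressed genes as lower, called 1 of these, futsch, the fly MAP1B-like protein of axons. Its normalized counts were 9187, 8006 and 5868 against 3118 and 3427 (limma log2 difference -1.21, SE 0.20, adjusted p = 0.0402). That limma call was lost without control a (adjusted p = 0.0865), control b (0.137) or knockdown b (0.0579), with a term for the shallower libraries (0.0728), on library totals (0.0510) and on raw counts (0.374). The limma log2 difference in these fits was -1.07, -1.17, -1.28, -1.17, -1.11 and -1.24. shot, a spectraplakin that links actin to microtubules, had 11731, 10321 and 8643 against 5021 and 5783 (limma adjusted p = 0.0537), and Patronin, which caps microtubule minus ends, had 4880, 4410 and 3618 against 2906 and 3160 (limma adjusted p = 0.115). Of 29 actin regulators, 1 was more than 25% lower, the formin gene form3, with 2136, 1829 and 1662 against 1394 and 1366 (limma adjusted p = 0.0959), and limma called none.

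These 4 genes are long, with 23308 (futsch), 30414 (shot), 7787 (Patronin) and 6298 (form3) exon bases, against 1560 to 2978 in the members. Over all genes, the median log2 FPKM ratio ran from 0.16 in the shortest of 5 bins of exon length to -0.26 in the longest, and was 0.08 and 0.01 in bins 3 and 4, where the members lie. Centred on the genes of their own bin, the median of the members was -0.02. The part of transcript length in the values of the long genes was not tested.

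Of 8 neuronal markers, 3 (elav, brp and Nrx-1) were more than 25% lower by FPKM, beside 19.3% of all genes. limma, which called 2.56% of the expressed genes as lower, called brp (adjusted p = 0.0458) and Nrx-1 (adjusted p = 0.0315), with 13371 and 10699 exon bases. Both calls were lost without control a (limma adjusted p = 0.0915 and 0.0519) or control b (0.139 and 0.117), and that of brp also without knockdown a (0.0520) or knockdown b (0.0824). With a term for the shallower libraries they were lost too (limma adjusted p = 0.0771 and 0.0739), as on raw counts (0.588 and 0.329), and that of brp on library totals (0.0595). The summed normalized count of the 8 neuronal markers was 26910 to 27904 in the controls and 20118 and 23825 in the knockdown. None of 4 glial markers was past 25%, and of 5 neuroblast markers 1 was lower and 1 higher. Genes of other tissues were present too. The summed normalized count of 4 hemocyte markers was 10294 to 14248 in the controls, 8997 in knockdown a and 2697 in knockdown b. NimC1 and He overlapped between groups, and limma called none of the 4. That of 4 fat body markers was 5631 to 7131 against 4031 and 1083, but in control c it came almost wholly from Lsp1beta (5606). Lsp2, at 2421, 2145 and 9.68 against 763 and 58.7, and Fbp2, at 531, 501 and 8.47 against 230 and 54.0, were lowest in control c, and limma called none of the 3 fat body genes that it could test. That of 6 salivary gland markers was 1985 to 2363 against 27.9 and 56.3, and in control c it came almost wholly from ng1 (937) and ng2 (1031). These were at 1.74 or less in the knockdown, and limma called both (adjusted p = 0.00482 and 0.00236), though neither without control a (0.0519 for both) or control b (0.0930 and 0.0874). Sgs3 (1.21 in control c against 4.35 and 5.87) and Sgs8 (4.84 against 17.4 and 43.4) were lower in control c than in the knockdown. The part of such cells in the values of the members was not tested.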

How the data were processed

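RNA from 3 control and 2 knockdown samples was sequenced. The authors mapped reads to the dm6 genome by TopHat (TopHat2 2.0.11 in the submitters' processing notes), removed duplicates with Samtools and ran CuffDiff (2.2.0) on the reads and DESeq and edgeR on counts from GenomicRanges. The notes also list CASAVA. Versions of the last 3 tools are not given in the sources used here. The deposited values were, per group, FPKM by CuffDiff. The authors' mean normalized counts by DESeq are a signal scaled by size factors. The authors' average log2 CPM by edgeR covers 9346 genes, called expressed genes here. Fold changes, test statistics and p-values of the authors' own comparisons were also deposited and were not used. No file had a column per library.

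Read counts were worked back from the means, deposited to 10 significant digits, as whole multiples of 3 or 2 unknown steps. The candidate sets were narrowed to 1 by the average log2 CPM, with 6 constants fitted over the genes. All 9346 genes gave 1 set, with a largest residual of 6.6e-10 and a next candidate no nearer than 4.7e-08, at a tolerance of 3e-09. The method was tested on simulated data. Log2 of counts plus 0.5 over the size factor was fitted with limma (version 3.58.1 in R 4.3.3) across the expressed genes, adjusted after Benjamini-Hochberg. Single members were compared by an exact permutation test (SciPy 1.17.1). Exons came from Ensembl release 115, whose gene positions match the files for all 10 members. Exon length was found for 98.9% of the expressed genes.

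All members are described. From each list every gene past 25% in both tables was named, up to 4 per direction, or else the most abundant, together with the neighbours in rank of the 3 most abundant members. Members and lists were chosen with earlier results of these data known. Alternatives were other units, filters, centrings and thresholds, and, added after seeing the data, raw counts, library totals, matched depth and leaving out each library.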

Additional observations from a re-analysis of the deposited data

How the results depend on the processing

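The number of members past a 25% difference was 1 under every other unit, filter, centring and depth tried, but was 2 at a 1.1-fold and 0 at a 1.5-fold threshold. It was 1 to 2 on leaving out each library in turn, reaching 2 without knockdown a, when alphaTub85E also fell below 0.75. The median log2 ratio of the members ran from -0.06 without knockdown b to 0.22 without knockdown a on leaving out each library, and was also below 0 when centred on genes of like exon length (-0.02) or like control FPKM (-0.01). The share of beta-tubulin from betaTub56D was 46.0% by normalized count per kilobase and 42.2% not per length, and that of actin from Act5C was 43.0% and 58.0%. The order of levels kept 41 and 40 of 45 pairs by count per kilobase and by average log2 CPM. Of 168 ratios of single members under the alternatives, 160 moved by less than 1 SD of the gene between replicates. That SD includes the gap between deeper and shallower libraries, so a shift within it can still be large. For alphaTub85E, a move of the log2 ratio from -0.16 with all libraries to -0.44 without knockdown a stayed within it. The log2 ratio of gammaTub37C stayed above 0, at 0.35 to 0.55. Those of the other 9 members, none past 25% by the group FPKM of all libraries, changed sign in 34 of 151 cases, over 8 of the 9 genes. limma called no member on raw counts, on library totals, with a term for the shallower libraries or without any 1 library, but its unadjusted p for gammaTub37C fell under 0.05 on library totals and with that term. The adjusted p of gammaTub37C ranged from 0.128 to 0.999. Over all genes its calls ran from 12 without control b to 1314 without control c, against 258 with all libraries. No paired analysis was possible because the recovered libraries carry no replicate number. Depth limits gammaTub37C most, with 147 to 291 reads per library.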

Other observations

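The 8 subunit genes of the chaperonin CCT, which folds new tubulin and actin, had read counts that varied less with depth than the library totals, a pattern noticed after their values were seen. Their reads in control c were 0.905 to 0.943 times those in control a and b, and their reads in knockdown b were 0.922 to 0.949 times those in knockdown a. Among the abundant members only alphaTub84D (0.929 in the controls) was in that range, and the other 4 were flatter. The median of the densest bin of genes was 0.911 and 0.887. Their control FPKM lay within 142 to 156 and their FPKM ratio of knockdown to control within 1.00 to 1.03.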
